A study of Oryza sativa Japonica Group with 21 samples.

Results

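Gene expression was compared between older and younger rice stamens. The 6 arrays of stamen stages 5 and 6 were set against the 6 arrays of stages 3 and 4, which makes 12 of the 21 arrays of the series, chosen by the stage in their titles. All groups came from Oryza sativa ssp. japonica cultivar Zhonghua 15, with no transgene or mutation named in the labels. Plants grew at 30 ± 2 °C with 11 h of day and 13 h of night in a growth chamber, or in a field, and the labels do not tie either setting to an array. Stamens were microdissected from panicles whose other side was sectioned to fix the stage, and each stage had 3 biological replicates. The labels do not define the stages by structure or give plant ages. The small RNA yields were amplified in 2 cycles before hybridisation to Affymetrix rice arrays, a step that can add variation between arrays. Stage 2 stamens and the 2 leaf groups, the primordium and the just-expanded blade of leaf 3, enter below only as reference levels.

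A stamen primordium forms an anther whose inner cells become germ cells and whose outer cells become wall layers. The innermost layer, the tapetum, feeds the germ cells and later supplies the pollen wall. In rice a receptor kinase and its ligand limit the number of germ cells, and a cascade of MYB and basic helix-loop-helix (bHLH) transcription factors then leads to tapetum genes such as those of pollen wall lipids.

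Of 57258 probe sets tested, 850 (1.48%) were called, which required at least a 2-fold difference and, in limma, a p under 0.05 after Benjamini-Hochberg adjustment. At stages 5 and 6, 392 (0.685%) rose and 458 (0.800%) fell. All values are log2 RMA values, on which 1 unit is a doubling, and differences are stages 5 and 6 minus stages 3 and 4. Genes of the anther receptor and tapetum cascade were among the named rises, as were kinesin motors, a D-type cyclin and the meristem receptor FON1. Among the named falls were 4 NAC transcription factors. The called rises had a median difference of 1.28 and the called falls of -1.35, against -0.02 over all probe sets. Called rises came from a lower starting level, with a median of 6.04 at stages 3 and 4, than called falls, with 8.61. A 2-fold fall needs a level well above background, so this order describes the call rule as well. At least a 4-fold difference was reached by 30 rises and 60 falls.

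**Figure D1:**
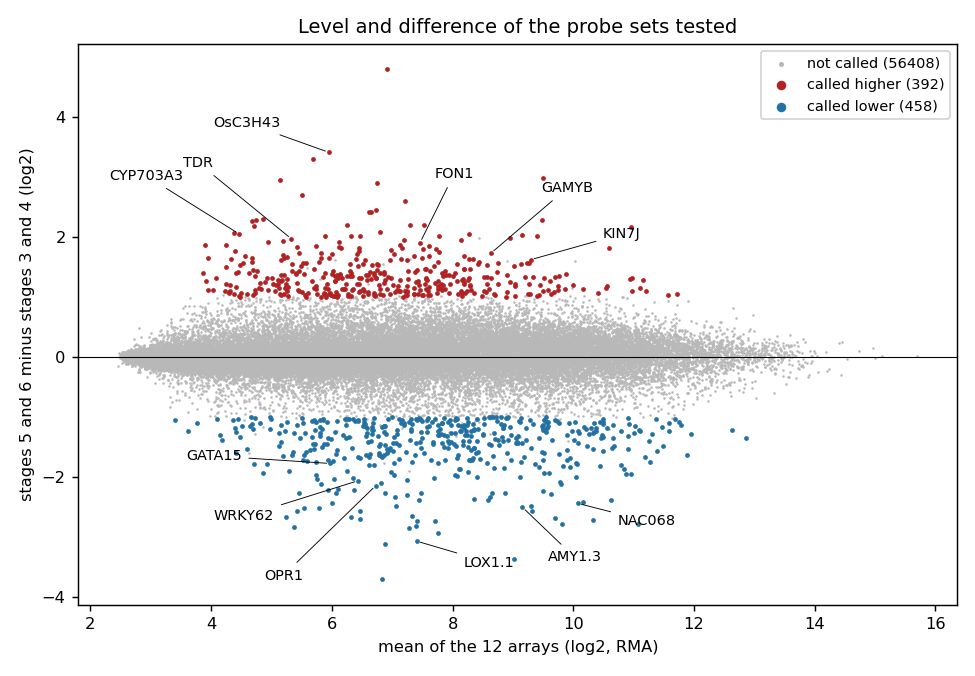
Each point is a probe set, with its mean over the 12 arrays (log2, RMA) on the x axis and the difference of stages 5 and 6 minus stages 3 and 4 (log2) on the y axis. The 392 called rises (red) and 458 called falls (blue) lie beyond 1 and -1, and most probe sets lie close to 0.

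The stamen label was checked against organ identity genes. OsMADS16, a B-class gene of stamens and lodicules, lay between 12.98 and 13.20 on the 12 arrays, against means of 5.23 in leaf primordium and 8.14 in expanded leaf. OsMADS58 and OsMADS3, the C-class genes of stamens and carpels, differed between the groups by 0.03 (adjusted p = 0.941) and 0.26 (adjusted p = 0.326). Of the further stamen markers, OsMADS4 differed by -0.41 (adjusted p = 0.0354), which passed the p threshold but not 2-fold. OsMADS7 and OsMADS8 differed by 0.24 (adjusted p = 0.0922) and 0.06 (adjusted p = 0.794). Of the 4 carpel and ovule markers none was called, and OsMADS13 and OsMADS21, of the ovule, stayed at 5.42 to 6.33 and 4.26 to 4.77, near their leaf means (5.55 and 5.49 for OsMADS13, 4.41 and 4.51 for OsMADS21). DL was brighter than these, with means of 7.82 in the younger group and 7.88 in the older (adjusted p = 0.831). OsMADS29 had means of 4.37 and 4.92 (adjusted p = 0.326). The mean level of the 4 carpel markers ran from 5.54 to 5.76 in the younger group and from 5.51 to 6.21 in the older. The 5 spikelet bract markers, read from the brightest probe set of each gene, had none called, with mean levels of 6.77 to 7.10 and 6.75 to 7.35. OsMADS14, a bract marker and AP1-like gene, passed on a dimmer probe set, which lay between 5.14 and 6.96 at stages 3 and 4 and between 7.02 and 7.61 at stages 5 and 6. The groups did not overlap there and it rose by 1.27 (SE 0.28, adjusted p = 0.0167), while its brightest probe set gave 0.74 (adjusted p = 0.0296), under 2-fold. Its remaining probe sets gave 0.65 (adjusted p = 0.0405) and 0.40 (adjusted p = 0.0672) and were not called. The part of carpel or bract tissue in other differences was not tested. None of the 19 floral MADS-box genes was called on its brightest probe set, and their median difference was -0.02.

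Arrays of 1 stage correlated at r = 0.984 to 0.995 over all probe sets, and arrays of different groups at 0.972 to 0.994, so the groups overlapped in overall profile. The median SD of a probe set within a stage was 0.167 at stage 3 and 0.136 to 0.143 at stages 4 to 6. The number of arrays limits the precision, and p-values measure the spread between these biological replicates. Among the called probe sets, stage 5 replicate 3 lay nearest the younger arrays for 208 of the 392 rises (53.1%) and 325 of the 458 falls (71.0%). Stage 3 replicate 1 lay farthest from the older arrays for 259 rises (66.1%) and 275 falls (60.0%). Without stage 5 replicate 3 the counts were 443 rises and 494 falls, and without stage 3 replicate 1 they were 311 and 330. The mean difference between the 3′ and 5′ control probe sets of actin and GAPDH, a sign of RNA quality, was 2.11 ± 0.43 (SD, n = 6) in the younger and 1.85 ± 0.31 (SD, n = 6) in the older group (exact permutation test, two-sided p = 0.229, smallest possible p = 0.00216). It was higher at stage 2, at 3.19 to 3.41, which bears on every stage 2 level given here. Expanded leaf replicate 3 was also high, at 3.37, against 1.73 and 1.96 for replicates 1 and 2, which bears on the expanded leaf means. The part of RNA quality in those levels was not tested.

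**Figure D2:**
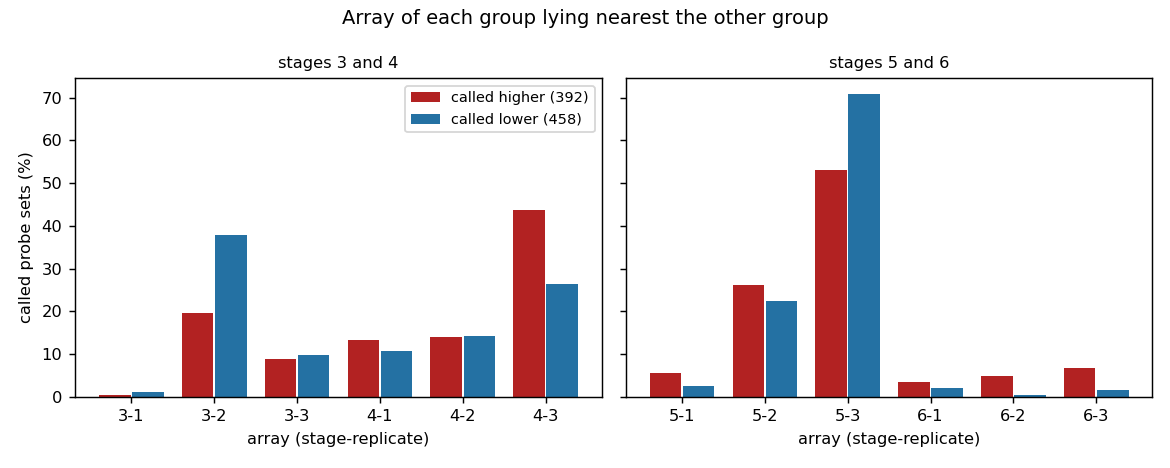
Bars give the percentage of the 392 called rises (red) and 458 called falls (blue) for which each array, named by stage and replicate, had the value of its group nearest the other group. Stage 5 replicate 3 stands out among the older arrays, with 53.1% of rises and 71.0% of falls.

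The early anther cell fate genes came first among the lists by role. Lists hold only the members that could be matched by name, here 12 for 22 symbols sought. Of the 12 members 4 rose and none fell. Of 2458 named genes 1.59% rose and 2.77% fell, and these shares are the reference for the list counts below. The list's median difference was 0.29. MSP1, the receptor kinase that limits germ cell number in rice, lay between 10.08 and 10.85 (median 10.54) at stages 3 and 4 and between 11.38 and 12.15 (median 11.82) at stages 5 and 6. The groups did not overlap, and the 3 stage 6 arrays were above every stage 5 array. The difference was 1.28 (SE 0.12, adjusted p = 0.000394). TDL1A, the ligand of MSP1, had no called difference (0.14, adjusted p = 0.487). OsSERK1, a receptor kinase of a family that acts as co-receptors, differed by 0.31 (adjusted p = 0.0775). These RNAs come from whole stamens, so more cells of a type and more RNA per cell cannot be told apart.

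Among the transcription factors of the list 3 were called. GAMYB, a gibberellin-regulated MYB factor needed for tapetum development, lay between 7.17 and 8.14 (median 7.88) in the younger group and between 8.66 and 10.07 (median 9.59) in the older, without overlap. It rose by 1.73 (SE 0.18, adjusted p = 0.000686). TDR, the bHLH factor of tapetum degeneration, lay between 4.02 and 4.73 (median 4.32) and then between 5.48 and 7.08 (median 6.41). Stage 5 replicate 1 was at 6.52, inside the range of stage 6 (6.30 to 7.08), and the other stage 5 arrays were at 5.63 and 5.48. TDR rose by 1.97 (SE 0.18, adjusted p = 0.000343), and at stages 3 and 4 its means of 4.14 and 4.55 were near its leaf means of 4.14 and 4.36.

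BHLH142, the bHLH factor also named TIP2, had a low stage 2 mean and higher means after it. From stage 2 to stage 6 they were 4.69, 7.88, 8.99, 9.40 and 9.89. The groups overlapped, at 6.71 to 9.30 (median 8.73) and 9.06 to 10.03 (median 9.67), and stage 3 replicate 1 was the lowest array. It rose by 1.21 (SE 0.28, adjusted p = 0.0194), but by 0.92, under 2-fold, without stage 3 replicate 1, and by 0.66 without all stage 3 arrays. EAT1, the bHLH factor that acts after TDR, stayed between 3.48 and 4.05 on all 12 arrays, near its leaf means of 3.70 and 3.76, and was not called (-0.18, adjusted p = 0.286). PTC1, a PHD-finger regulator of tapetum cell death, likewise stayed between 3.00 and 3.31.

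Only 7 late tapetum and pollen wall genes were matched for 28 symbols sought. Of these, 1 rose and none fell, with a list median of 0.19. The riser was CYP703A3, a cytochrome P450 that hydroxylates fatty acids for the pollen wall and anther cuticle. It was between 3.23 and 3.75 (median 3.46) at stages 3 and 4, against leaf means of 3.24 and 2.74, and between 4.57 and 6.63 (median 5.47) at stages 5 and 6. The 3 stage 5 arrays, at 5.06, 4.70 and 4.57, lay between the younger arrays and the 3 stage 6 arrays, at 5.88, 6.08 and 6.63. CYP703A3 rose by 2.05 (SE 0.14, adjusted p = 0.000163). RAFTIN1, a tapetum protein of pollen coat bodies, differed by 0.64 (SE 0.11, adjusted p = 0.00639), which passed the p threshold but not 2-fold. The lipid transfer protein genes C6 and C4 lay at 3.79 to 4.19 and 3.67 to 4.29 on the 12 arrays and were not called.

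**Figure D3:**
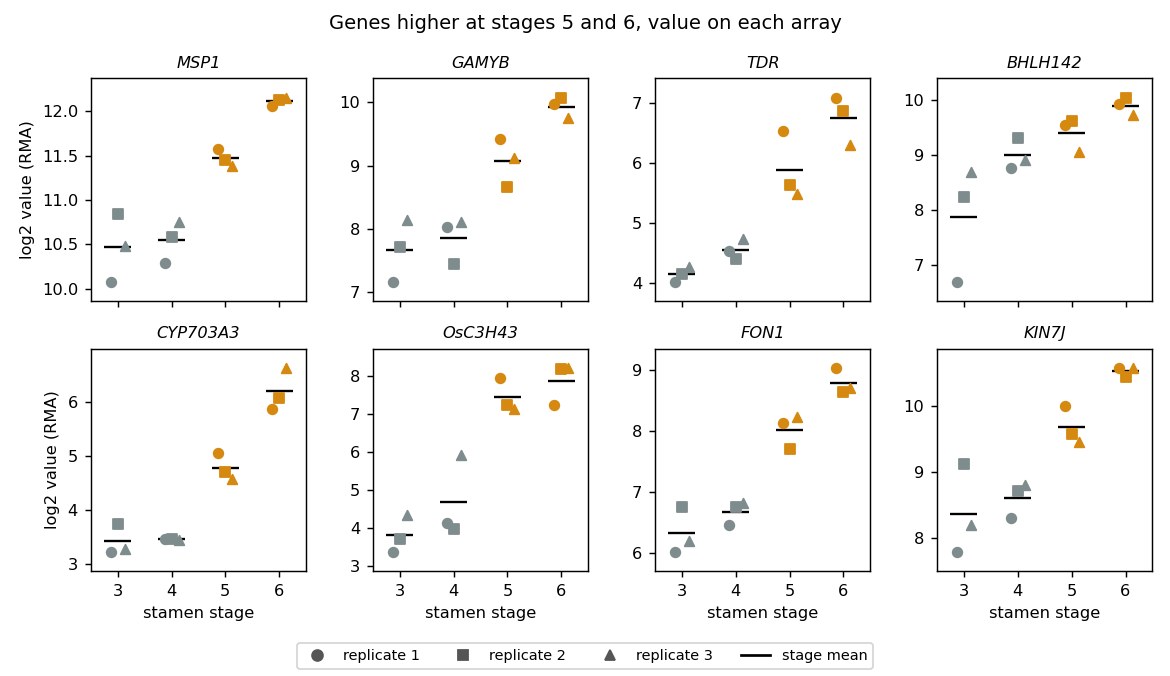
Points give the log2 RMA value on each array for 8 genes that rose, by stamen stage and replicate, with the stage mean as a bar. All but BHLH142 show no overlap between stages 3 and 4 (grey) and stages 5 and 6 (orange), and CYP703A3 has stage means of 3.42, 3.46, 4.78 and 6.20.

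None of the 14 meiosis genes matched for 46 symbols sought was called, with a median of 0.15 and a range of -0.38 to 0.47. SPO11-4, of the family that cuts DNA to start recombination, differed by 0.44 (adjusted p = 0.0303), PAIR1 by 0.47 (adjusted p = 0.238) and PAIR2, a chromosome axis protein, by 0.05 (adjusted p = 0.819). DMC1, a meiotic recombinase, had a difference of -0.23 (adjusted p = 0.221). The mean level of the 14 genes ran from 7.82 to 8.18 in the younger group and from 7.94 to 8.27 in the older.

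Of 18 small RNA silencing genes 1 rose, against 1.59% of named genes, namely the germ cell Argonaute MEL1. It lay between 10.47 and 11.55 (median 11.24) and then between 11.99 and 12.78 (median 12.16), without overlap, and stage 3 replicate 1 was the lowest array. Its rise of 1.05 (SE 0.16, adjusted p = 0.00317) was near the 2-fold threshold, and was 0.90 without stage 3 replicate 1 and 0.97 without stage 6 replicate 1. Of the genes that make phased small RNAs, DCL4, a Dicer, differed by 0.86 (adjusted p = 0.00226) and SHL2, an RNA-dependent RNA polymerase, by 0.55 (adjusted p = 0.00373), both without overlap between groups and both under 2-fold. SGS3, their partner, differed by 0.65 (adjusted p = 0.111) on its brightest probe set and by 0.47 (adjusted p = 0.0335) on a second one, so only the dimmer passed the p threshold. AGO14 was highest at stage 5 replicate 1 and stage 6 replicate 1, and with groups at 4.04 to 4.49 and 4.35 to 6.57 it did not pass either (0.94, adjusted p = 0.082). Other members went down, with AGO18 at -0.81 (adjusted p = 0.128) and AGO3 at -0.39 (adjusted p = 0.0301). At any fold, 4 of the 18 had an adjusted p under 0.05 upward and 1 downward, against 11.1% and 7.40% of named genes.

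Motor and replication genes differed mostly upward and by less than 2-fold. Of 42 kinesin and tubulin genes 4 rose at 2-fold and none fell, and 23 had an adjusted p under 0.05 upward at any fold and none downward. Over the 2458 named genes these shares were 11.1% upward and 7.40% downward, and over all probe sets they were 5.68% and 3.41%. Their median difference was 0.43, against 0.01 over named genes, and 39 of the 42 were positive. KIN7J, a kinesin-7 motor, lay between 7.79 and 9.12 (median 8.51) in the younger group and between 9.46 and 10.58 (median 10.22) in the older, without overlap. It rose by 1.62 (SE 0.20, adjusted p = 0.00127), and the 3 stage 6 arrays were all above the stage 5 arrays. KIN14F, KIN14Q and KIN14R, kinesin-14 motors, rose by 1.18, 1.08 and 1.01. Without stage 3 replicate 1 KIN14F and KIN14Q came to 0.99 and 0.95, under 2-fold, and KIN14Q came to 0.99 without stage 4 replicate 2. With the RNA quality measure (3′ minus 5′) in the fit KIN14F also came to 0.99. KIN14R lost its call in 7 of 27 alternative settings.

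Of 29 DNA replication genes 2 rose at 2-fold and none fell, and 13 had an adjusted p under 0.05 upward at any fold, with none downward. Their median difference was 0.46. MCM7, of the replicative helicase, lay between 8.05 and 9.71 (median 9.05) and then between 9.61 and 10.79 (median 10.33). One early array overlapped the late range, and the difference was 1.26 (SE 0.27, adjusted p = 0.0146). The other helicase subunits differed by 0.94 (OsMCM6), 0.73 (MCM4), 0.65 (MCM3), 0.59 (MCM2) and 0.58 (MCM5), each with an adjusted p under 0.05 and under 2-fold. These subunits were named after their values were seen. PCNA, the replication clamp, rose by 1.02 (adjusted p = 0.0454) and lost its call in 14 of the 27 alternatives.

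Among 25 cyclins, cyclin-dependent kinases and their partners 2 rose and none fell, against 1.59% of named genes that rose. CYCD5-1, a D-type cyclin, lay between 6.70 and 8.08 (median 7.67) and then between 8.23 and 9.61 (median 8.83), without overlap, and rose by 1.46 (SE 0.26, adjusted p = 0.00687). Rbr1, a retinoblastoma-related cell cycle inhibitor, was at 8.42 to 10.02 (median 8.89) and 9.45 to 10.99 (median 10.52), with overlap, and rose by 1.34 (SE 0.24, adjusted p = 0.00718). A second, dimmer probe set of Rbr1 gave 0.85 (adjusted p = 0.0592) and was not called. The other 23 members were not called, and their range was -0.42 to 0.66. On their brightest probe sets none of the 20 cytosolic ribosomal protein genes and none of the 5 histone genes was called. A dimmer probe set of the ribosomal protein gene RPS3A, named after its values were seen, rose by 1.20 (SE 0.18, adjusted p = 0.00278), against 0.20 on its brightest.

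Meristem regulators split. FON1, a CLAVATA1-like receptor kinase that restricts floral meristem size, lay between 6.03 and 6.82 (median 6.62) and then between 7.72 and 9.04 (median 8.44), without overlap. It rose by 1.90 (SE 0.14, adjusted p = 0.000163). Of the 18 meristem and polarity genes FON1 alone rose, 2 fell and the median was -0.23. WOX11, a homeobox factor known from crown root formation, fell by 1.11 (SE 0.19, adjusted p = 0.00484). Its means from stage 2 to stage 6 were 8.76, 5.54, 4.92, 4.28 and 3.95, and its difference was -0.93 without stage 3 replicate 1 and -0.99 with the RNA quality measure (3′ minus 5′) in the fit. OsYAB3, a YABBY factor, fell by 1.28 (adjusted p = 0.0473) and lost its call in 16 of the 27 alternatives, with stage 6 replicate 3 the highest older array at 8.61. OSH1, a KNOX meristem factor, reached 8.76 on stage 3 replicate 2 and 4.91 to 5.90 on the older arrays, and was not called (-0.82, adjusted p = 0.362).

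Among the named rises OsC3H43 had the largest fitted difference, and its name places it among CCCH zinc finger proteins. Its arrays lay between 3.38 and 5.92 (median 4.05) at stages 3 and 4, and between 7.13 and 8.21 (median 7.59) at stages 5 and 6. The step from stage 4 (mean 4.68) to stage 5 (mean 7.43) held most of the change, and both leaf means were low, at 3.38 and 3.29. The fitted difference was 3.41 (SE 0.34, adjusted p = 0.000454). The values carry no detection calls, and levels this near the leaf means were not shown to be above background, so the size is no exact fold, here or for TDR and CYP703A3. CYP701A8, a kaurene oxidase-like P450, rose by 2.02 (adjusted p = 0.00342) and CLPC3, a Clp chaperone, by 2.01 (adjusted p = 0.00135), each without overlap, and both were already higher at stage 4 (means 6.10 and 7.52) than at stage 3 (4.79 and 6.03). IAA14, an auxin-response repressor, rose by 1.58 (adjusted p = 0.0032). The largest rise of all belonged to a gene known by its Entrez number alone, 4352624, with stage means of 3.85, 5.19, 8.01 and 10.61 and a difference of 4.79 (adjusted p = 0.000207).

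The growth regulators of the GRF, SPL and TCP families had 3 of 27 members that rose and none that fell. The share of named genes that rose was 1.59%, and the list's median was 0.00. SPL12 rose by 1.19 (SE 0.15, adjusted p = 0.00138), from 8.56 to 9.67 (median 9.51) up to 10.10 to 11.09 (median 10.57), without overlap. The difference was 0.99, under 2-fold, without the stage 3 arrays. SPL16 rose by 1.02 and lost its call in 7 of the 27 alternatives. PCF5, a TCP factor, rose by 1.07, and came to 0.92 without stage 4 replicate 2 and without stage 5 replicate 1.

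The falls included NAC transcription factors, a plant family with many stress and senescence regulators. Of 8 members 4 fell and none rose, against 2.77% of named genes that fell, and the median was -0.85. With the probe sets of each gene averaged, 3 fell and the median was -0.38. NAC068 lay between 10.86 and 11.92 (median 11.16) in the younger group and between 7.38 and 10.62 (median 8.67) in the older. No arrays overlapped, stage 5 replicates 2 and 3 (10.07 and 10.62) were nearest the younger group, and the stage 6 arrays were lowest. NAC068 fell by 2.45 (SE 0.27, adjusted p = 0.000928).

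NAC048 lay between 10.41 and 11.68 (median 10.93) and then between 8.33 and 10.25 (median 8.83). Here stage 5 replicate 1, at 8.52, was among the stage 6 values, and stage 5 replicates 2 and 3 were at 10.25 and 10.23. It fell by 1.76 (SE 0.30, adjusted p = 0.00482). Much dimmer probe sets of NAC048 gave 0.01 (adjusted p = 0.942) and -0.16 (adjusted p = 0.560) and were not called. NAC071 fell by 1.71 (SE 0.29, adjusted p = 0.00517), and its 2 further probe sets gave -1.72 and -1.40, both called. NAC067 fell by 1.57 (SE 0.21, adjusted p = 0.00178), from a median of 11.33 to a median of 9.68. The remaining members, NAC2, NAC076, NAC010 and NAC45, were not called, with differences between -0.13 and 0.14.

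Further transcription factors fell with no overlap between groups. DREB2D, an AP2-type factor of the dehydration-responsive family, lay between 6.25 and 7.0 (median 6.66) and then between 4.62 and 5.45 (median 5.40). The stage means of 5.37 at stage 5 and 5.15 at stage 6 were close, and the fall was 1.36 on the log2 scale (SE 0.14, adjusted p = 0.000603). A second probe set of DREB2D stayed at means of 2.74 and 2.72. GATA15, a GATA-type factor, fell by 1.78 (SE 0.34, adjusted p = 0.00833). Its stage 3 arrays spread from 5.87 to 8.11, the widest of the 4 stages.

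**Figure D4:**
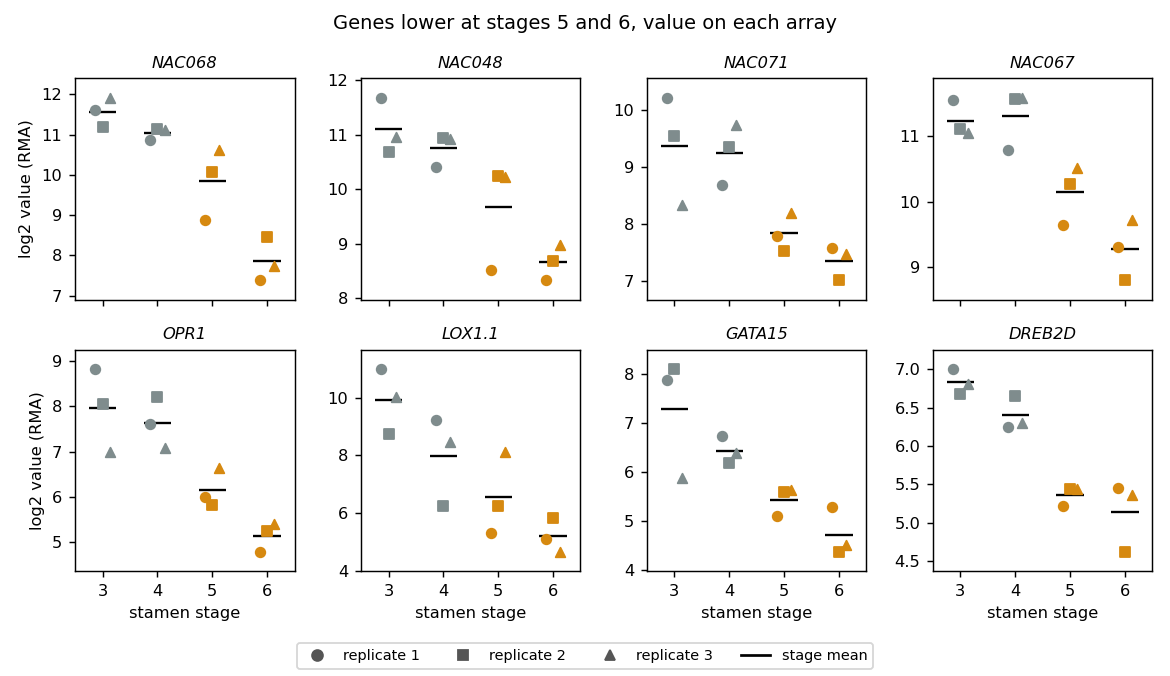
Points give the log2 RMA value on each array for 8 genes that fell, by stamen stage and replicate, with the stage mean as a bar. NAC068 has stage means of 11.57, 11.03, 9.85 and 7.86, and LOX1.1 is the only gene drawn whose groups overlap.

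Of 6 WRKY factors 2 fell and none rose, against 2.77% of named genes that fell, with a median of -0.85. WRKY62, a regulator of defence, lay between 5.41 and 9.92 (median 7.16) and then between 5.03 and 6.25 (median 5.30), with overlap. It fell by 2.07 (SE 0.44, adjusted p = 0.0142). The stage 3 mean of 8.82 stood above the stage 4 mean of 6.12, and without the stage 3 arrays the difference was -0.72 (adjusted p = 0.295). WRKY24 fell by 1.24 and lost its call in 12 of the 27 alternatives.

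Heat shock proteins and factors had 3 of 41 members that fell and none that rose, against 2.77% of named genes that fell. The list's median was -0.22. With the probe sets of each gene averaged, 2 fell and the median was -0.14. HSFA2C, a heat shock transcription factor, lay between 9.90 and 10.68 (median 10.39) and then between 7.64 and 9.94 (median 8.57). Only stage 5 replicate 3 overlapped the younger arrays. The gene fell by 1.72 (SE 0.17, adjusted p = 0.000454), while a second, dimmer probe set of it had a difference of 0.10 and was not called. HSP17.9B, a small heat shock protein, fell by 1.06 (adjusted p = 0.00375), near the 2-fold threshold, and leaving out stage 3 replicate 1, stage 4 replicate 2 or stage 5 replicate 1 gave -0.97 to -1.0, under 2-fold. HSFA4D fell by 1.26 and lost its call in 15 of the 27 alternatives.

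Jasmonate is a lipid-derived hormone needed for late anther growth and opening, and its called genes moved both ways. Of 29 members 2 rose and 2 fell, against 1.59% and 2.77% of named genes, and the median was -0.09. At any fold, 2 had an adjusted p under 0.05 upward and 6 downward, against 11.1% and 7.40% of named genes. The difference was positive for 9 of the 29. JAR1, which joins jasmonate to isoleucine to make the active form, lay between 6.17 and 6.97 (median 6.69) and then between 7.39 and 8.30 (median 7.85). It rose by 1.17 (SE 0.13, adjusted p = 0.000862). TIFY5, a member of the repressor family of the pathway, rose by 1.28 (SE 0.17, adjusted p = 0.00178), also without overlap.

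OPR1, named a 12-oxophytodienoate reductase, lay between 7.0 and 8.82 (median 7.84) and then between 4.79 and 6.64 (median 5.62). The groups did not overlap, and it fell by 2.15 (SE 0.29, adjusted p = 0.00204). TIFY11C, of the repressor family as well, fell by 1.53 (SE 0.24, adjusted p = 0.00391), with stage 5 replicates 2 and 3, both at 10.74, just inside the younger range of 10.72 to 12.18. With all 21 arrays in the fit TIFY11C did not pass (adjusted p = 0.267).

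Outside the lists, and chosen after its values were seen, LOX1.1, named a lipoxygenase, had the largest fall of the named genes. It lay between 6.25 and 10.99 (median 8.99) and then between 4.66 and 8.11 (median 5.56), with overlap of stage 4 replicate 2, the lowest younger array, and stage 5 replicate 3, the highest older one. The fall was 3.08 on the log2 scale (SE 0.60, adjusted p = 0.00904), and -2.11 without the stage 3 arrays (adjusted p = 0.116). ILL6, an amidohydrolase that acts on hormone conjugates, was likewise chosen after its values were seen and fell by 1.72 (SE 0.29, adjusted p = 0.00482).

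Other hormone lists held few calls, to be set against the 1.59% of named genes that rose and 2.77% that fell. Of 32 cytokinin genes 1 rose and 1 fell. In the cytokinin list, LOGL6, of the family that activates cytokinin, rose by 1.34 (adjusted p = 0.0148), without overlap between groups, and had 1.24 (adjusted p = 0.0786) without the stage 3 arrays. LOG, the enzyme that founded that family and acts in shoot meristems, fell by 1.18 (SE 0.15, adjusted p = 0.00153), and by 0.91 without the stage 3 arrays. A dimmer probe set of LOG gave -0.08 (adjusted p = 0.691) and was not called. The other 30 members were not called. With the probe sets of each gene averaged, 1 cytokinin gene rose and none fell. Of 44 auxin genes IAA14 rose and PID, a kinase of auxin transport, fell (-1.25), with PID losing its call in 14 of the 27 alternatives. None of 12 gibberellin genes was called.

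Transport, wall and signalling genes were also among the named falls without overlap. ERG1, an elicitor-responsive C2-domain protein, fell by 1.60 (adjusted p = 0.00262), CML4, a calmodulin-like protein, by 1.19 (adjusted p = 0.00132) and BBD2, a nuclease-like protein, by 1.79 (adjusted p = 0.00197). The ABC transporters ABCG36 and ABCG37 fell by 1.46 and 1.13, and ABCG37 came to -0.97 without the stage 3 arrays. SAT4 lay between 6.48 and 7.46 (median 6.97) and then between 4.64 and 6.08 (median 5.64), and fell by 1.33 (SE 0.22, adjusted p = 0.00505). CAD2, a cinnamyl alcohol dehydrogenase of lignin synthesis, fell by 1.31 (adjusted p = 0.0045). It was the only called member of 8 vascular and secondary wall markers. Their mean level ran from 7.69 to 7.93 in the younger group and from 7.36 to 7.66 in the older, while the cellulose synthases CESA4, CESA7 and CESA9 differed by 0.01, -0.07 and -0.05. The part of vascular cells in the fall of CAD2 was not tested.

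Photosynthesis genes had 1 call. None of the 8 light reaction genes matched for 42 symbols sought and none of 11 chloroplast regulator and chlorophyll genes was called, with medians of 0.00 and 0.01. RBCS, the small subunit of the carbon-fixing enzyme, fell by 1.59 (SE 0.30, adjusted p = 0.00862) on its brightest probe set, from 9.56 to 11.10 down to 7.60 to 10.12. Its expanded leaf mean there was 14.30, and 3 further probe sets of RBCS, with differences of -0.40, -0.14 and 0.03, were not called. The other 6 Calvin cycle genes were not called.

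**Figure D5:**
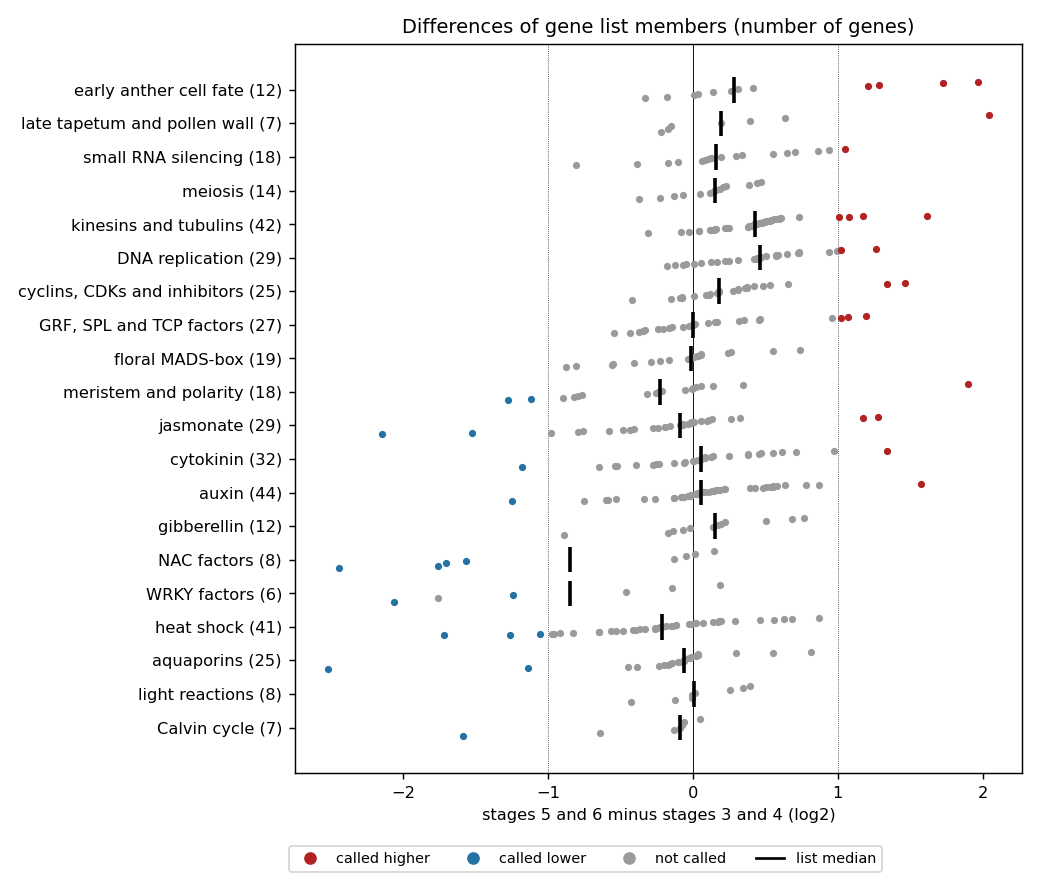
Points give the difference of stages 5 and 6 minus stages 3 and 4 (log2) for the members of 20 gene lists, 1 probe set per gene, coloured by call, with the list median as a black bar and dotted lines at 2-fold. The NAC and WRKY medians lie at -0.85, and those of kinesins and tubulins and of DNA replication at 0.43 and 0.46.

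The change was then followed from stage to stage in the same fit. Among the 392 called rises the median step was 0.36 from stage 3 to 4, 0.95 from stage 4 to 5 and 0.38 from stage 5 to 6. Among the 458 called falls it was -0.32, -0.89 and -0.77. The middle step is part of the contrast that chose these probe sets, so its larger size describes the choice as well. As tests of their own, the steps gave 3 calls (0.00524%), of them 2 up (0.00349%) and 1 down (0.00175%), then 1 call (0.00175%), a rise, and 0 calls (0.00%). Without adjustment, 5267, 5935 and 6040 probe sets had p under 0.05 in limma.

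Separate fits of stage 5 against 3 and of stage 6 against 4 shared no array with each other. Both used arrays of the main comparison, so their calls are no independent repeat of it. The first called 34 probe sets (0.0594%), 27 up (0.0472%) and 7 down (0.0122%), and the second 1617 (2.82%), 795 up (1.39%) and 822 down (1.44%). Of these, 13 were called in both, all in the same direction, which is 38.2% of the first list and 0.804% of the second. Among the 13 were OsC3H43 (3.62 and 3.20), DREB2D (-1.46 and -1.25) and CIPK6, a protein kinase of calcium signalling (1.47 and 1.23), the last named after its values were seen. CIPK6 rose by 1.35 over all 12 arrays and by 0.87, under 2-fold, without the stage 3 arrays, and it did not pass with all 21 arrays in the fit (adjusted p = 0.262). The count for stage 5 against 3 went from 34 to 0 when stage 3 replicate 1 or any stage 5 array was left out, and to 170 without stage 3 replicate 2. For stage 6 against 4 it was 1046 without stage 4 replicate 2.

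Some genes differed in size between these fits. CYP703A3 had 1.36 for stage 5 minus 3 and 2.74 for stage 6 minus 4, but the difference between these did not pass (1.38, adjusted p = 0.1). NAC068 had -1.72 and -3.17 (difference -1.45, adjusted p = 0.322) and HSFA2C -0.99 and -2.45 (difference -1.47, adjusted p = 0.14). Only 3 probe sets passed the test of that difference (0.00524%), all downward, and none of them had an informative gene name.

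The arrays of the 2 groups did not overlap for 1786 of all probe sets (3.12%), 1193 upward (2.08%) and 593 downward (1.04%). Among called probe sets the groups were apart for 248 of the 392 rises and 137 of the 458 falls.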

How the data were processed

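RNA of rice stamens was hybridised to Affymetrix rice arrays. The deposited values are log2 per probe set, made by the authors with RMA (background correction, quantile normalisation and summary), per the submitters' processing notes, with no version stated there. Of 57381 probe sets, 123 controls were left out. The platform annotation tied 22436 probe sets to 1 gene and 95 to several, and 34727 had none listed. Names came from synonyms in a RefSeq table of assembly ASM3414082v1, which informatively named 2458 of 17905 genes, and no positions were used.

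One limma fit (limma 3.58.1, R 4.3.3, two-sided) gave each of the 4 stages a mean over the 12 arrays and contrasted stages 5 and 6 with stages 3 and 4. Steps and the test between stage 6 minus 4 and stage 5 minus 3 came from the same fit. On simulated data with each probe set's spread within stages, 28 of 50 changes of log2 1 were recovered, a size at the call threshold itself. Of changes of 1.5, 2 and 3, 50, 49 and 50 of 50 were recovered, with 1 false call. The noise was independent between probe sets and stages of a group did not differ. Deviations that an array shares across probe sets were thus not simulated, and the false call count does not carry over to these data.

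The comparison, gene lists and named-gene rule were chosen with earlier results of these data known. Each list gene was read from its brightest probe set over the 12 arrays. The rule named the 15 largest called rises and falls with a named gene and no overlap, the 4 largest of each of the later steps (there were none), members of 8 developmental lists, and, from each remaining list, at most 6 that were called. OsMADS58 and OsMADS3 were always included. Settings tried in turn were other sample sets, normalisation, filters, variance priors, thresholds, a block and leaving out each array. A list of callose and glucanase genes matched no gene. A planned search of promoter letters was not run, as promoter sequences were not used here.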

Additional observations from a re-analysis of the deposited data

Results flagged for a closer look

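Among 144 groups of 6 arrays of called named probe sets, 12 had 1 array far from the other 5 by Dixon's ratio of the gap to the range, above its 95% critical value. Chance would flag about 1 group in 20 if each were 1 normal sample. Here each group pooled 2 stages and the same 12 arrays recurred throughout, so that rate does not carry over. Stage 3 replicate 1 was the far array 5 times, with 5.98 for OsbZIP11 (nearest array 6.73), 10.10 for ABCG36 (8.75), 10.47 for MEL1 (11.20), 8.56 for SPL12 (9.44) and 10.88 for the probe set with the largest fall of all (8.86). Stage 5 replicate 3 was the far array 5 times as well, with 6.57 for HSFA4D (5.88), 5.93 for catA (5.24), 9.22 for BZIP52 (7.74), 6.92 for OsTIP3;1 (4.39) and 7.28 for that same probe set (5.02). Stage 6 replicate 2 was the far array for DREB2D at 4.62 (5.22) and for SAT4 at 4.64 (5.62). That probe set has no listed gene (difference -3.71, adjusted p = 0.00279), and its leaf means were 11.17 and 11.48.

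For 3 probe sets the change from stage 4 to 6 differed from that from stage 3 to 5 by limma's test of the difference itself. All 3 had their highest mean at stage 4, and their genes have only Entrez numbers. Gene 9270116 had stage means of 5.73, 8.68, 7.80 and 5.83, so it was 2.07 higher at stage 5 than at stage 3 and had -2.85 for stage 6 minus 4 (difference -4.92, adjusted p = 0.047). Gene 4327363 had means of 5.43, 7.20, 6.25 and 4.92 (difference -3.09, adjusted p = 0.00814). Gene 4325140 had means of 6.28, 7.26, 6.91 and 6.11 (difference -1.78, adjusted p = 0.00851).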

How the results depend on the processing

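No called probe set was called in the opposite direction under any alternative. Of the 72 called named probe sets, 30 kept their call in all 27 alternatives to that comparison and 5 more in the 25 or 26 that kept the probe set, and under stage 5 minus stage 4 alone none did. With the RNA quality measure (3′ minus 5′ controls) in the fit 7 lost their call. Called counts (392 up, 458 down) became 3252 and 1951 with no fold threshold, 1428 and 1074 at 1.5-fold, 315 and 267 at an adjusted p under 0.01, and 1 and 0 for stage 5 minus stage 4 alone. Leaving out each array in turn gave 299 to 493 up and 328 to 594 down, and leaving out the stage 3 arrays, chosen after seeing the data, gave 347 and 387. With all 21 arrays in the fit the counts were 351 and 339. Without a fold threshold the steps gave 5 (stage 4 minus 3) and 3 (stage 5 minus 4), and stage 6 minus 4 alone gave 5262. Leaving out 1 array, also added later, gave 0 to 170 for stage 5 minus 3 alone and 1046 to 1935 for stage 6 minus 4 alone. With the replicate number as a block, the counts were 386 up and 426 down, 0 for stage 5 minus 4, 0 for stage 5 minus 3 alone, 1333 for stage 6 minus 4 alone and 12 for the difference between these. Deviations of same-numbered arrays correlated above 0.1 in 4 of 18 pairs, with a range of -0.32 to 0.36. As they are deviations from means of 3 arrays, they cannot tell whether the numbers pair the samples. The main fit used no pairing. Among the 676 list genes, 24 rose and 20 fell when the probe sets of a gene were averaged. The promoter letters were not searched. The cause of these shifts was not tested.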

Other observations

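The genes given here were chosen after their values were seen, apart from OsTIP3;1, and make up no list. AMY1.3, an alpha-amylase that breaks down starch, lay between 9.43 and 11.71 (median 10.08) at stages 3 and 4 and between 5.95 and 9.85 (median 8.13) at stages 5 and 6, with overlap, and its leaf primordium mean was 13.27. It fell by 2.51 (SE 0.53, adjusted p = 0.014), and had -1.78 (adjusted p = 0.141) without the stage 3 arrays. Agglutinin, a lectin, fell by 2.74 (SE 0.51, adjusted p = 0.00788), with a leaf primordium mean of 10.29, and had -2.11 (adjusted p = 0.0564) without the stage 3 arrays. OsTIP3;1, a vacuolar water channel, fell by 2.52 (adjusted p = 0.026) and lost its call in 12 of the 26 alternatives that kept it. Other genes named for seed proteins rose, with prolamin at 1.16 and 1.26 on 2 probe sets and RA5 at 1.19, each without overlap between groups.

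PDC, a pyruvate decarboxylase of fermentation, had its highest stamen mean at stage 4, below its leaf primordium mean of 13.38. The probe set reported had stage means of 9.93, 11.59, 10.34 and 7.76. It fell by 1.71 (SE 0.40, adjusted p = 0.0211), with 0.41 for stage 5 minus 3 and -3.83 for stage 6 minus 4, and the difference between these did not pass (-4.24, adjusted p = 0.0813). Without stage 4 replicate 2 the difference was -1.55 (adjusted p = 0.059), and without stage 5 replicate 1 it was -1.59 (adjusted p = 0.0565). Adh2, an alcohol dehydrogenase (stage means 8.14, 9.67, 8.34 and 6.22), and NSHB2, a non-symbiotic haemoglobin (8.68, 10.24, 8.67 and 6.69), had the highest of these 4 means at stage 4 as well, under leaf primordium means of 9.86 and 12.85. They fell by 1.63 and 1.78, and lost their calls in 16 and 15 of the 27 alternatives.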
